A study of Drosophila melanogaster with 12 samples.

Results

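The comparison described here sets ovaries of the sterile genotype su(Hw)Pb/2 against ovaries of the fertile genotype su(Hw)f/v in Drosophila melanogaster. It uses 6 of the 12 arrays of the series, the 3 titled Pb/2 and the 3 titled f/v. The other 6 arrays, 3 of the wild type Canton S and 3 of the sterile genotype su(Hw)2/v, share the estimate of the spread and are given beside single genes. Pb/2 females carried the alleles su(Hw)Pb and su(Hw)2, and f/v females carried su(Hw)f and su(Hw)v, so that the groups share no allele of the gene. All groups were virgin females 4 to 6 h old, raised at 25 °C, and each array holds RNA pooled from about 150 ovary pairs. At that age the ovary is recorded to hold egg chambers up to stage 8, and without Su(Hw) they die at stage 9. The stages present in each pool were not measured here, and whether the groups matched in stage was not tested. The source names of the samples say embryos, whereas the tissue labels, the titles and the protocols say ovary. Sterility, the alleles and whatever else differs between the stocks are confounded in this comparison and cannot be told apart.

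Su(Hw) is a zinc finger protein that binds DNA at the gypsy insulator and at many other places in the fly genome, in part together with CP190 and an isoform of Mod(mdg4). In the ovary it is needed for egg chambers to pass mid-oogenesis, and its best known role there is to keep neuronal genes low. Rbp9, whose product binds RNA and belongs to the Elav family, is the best studied of these targets. The eggshell, a vitelline membrane covered by a chorion, is made by the follicle cells, with the vitelline membrane genes on before the chorion genes.

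Signals are the brightness of Affymetrix probe sets after quantile normalization. They compare the genotypes for a given gene and carry no ranking between genes. Background was set at 66.5, below which 95% of the values of 27 bacterial controls lay. Array medians as deposited were 98.6 to 117 in f/v and 98.7 to 111 in Pb/2. Over all genes tested the arrays correlated at 0.987 to 0.991 within the groups and at 0.967 to 0.971 between them. The spike CreX, added at a fixed amount, averaged 54744 ± 1727 in f/v and 64452 ± 6235 in Pb/2 (SD, n = 3). The 3′ to 5′ ratio of the GAPDH control, a measure of RNA integrity and amplification, was 1.92 to 2.09 in f/v and 2.16 to 2.40 in Pb/2. For the actin control the ratio went the other way, 1.77 to 1.83 in f/v and 1.69 to 1.76 in Pb/2. For the eIF4a control it was 3.52 to 4.09 in f/v and 2.87 to 3.84 in Pb/2. The part of these ratios in the differences was not tested. Of the germline markers 12 of 12 were above background in both groups. Whether they tell ovary from embryo was not tested.

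su(Hw) itself checks the labels in part. In replicate order its signal was 2912, 2708 and 2591 in f/v and 85.8, 153 and 212 in Pb/2, and the groups did not overlap. The gene fell by 4.13 ± 0.25 on the log2 scale (standard error of the fit, adjusted p = 1.5e-06). Wild type arrays read 3862, 3561 and 3999 and 2/v arrays 85.1, 129 and 81.4. Pb/2 did not pass the test against 2/v (0.48 ± 0.25, adjusted p = 0.2), nor f/v against wild type (-0.47 ± 0.25, adjusted p = 0.17). The gene thus tells the sterile genotypes from f/v and wild type, but not Pb/2 from 2/v or f/v from wild type. All fold changes here are differences of log2(signal + 16), which understates the change of dim genes, and adjusted p-values are from limma with Benjamini-Hochberg adjustment over the 9109 genes tested. A gene is called where the adjusted p is below 0.05.

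Of the 9109 genes, 1871 (20.5%) were called, 914 (10%) higher and 957 (10.5%) lower in Pb/2 than in f/v. At least 2-fold, 440 genes (4.83%) were called, 246 higher and 194 lower, and at least 8-fold 22 were higher and 24 lower. With genes below background in their dimmer group set at a bound, explained below, 213 and 160 were at least 2-fold and 20 and 16 at least 8-fold. The 3 arrays of Pb/2 and the 3 of f/v did not overlap for 3458 genes (38%). The median over all genes was -0.02. Arrays scaled to the hybridization controls instead gave 367 higher and 2063 lower with a median of -0.27, and arrays centred on their medians gave 820 higher and 586 lower, so that the balance of small rises and falls depends on the scaling. Values below are relative to quantile-normalized arrays. Each array is a pool of ovaries, and p-values measure the spread between these pools. In ovaries as a whole, fewer cells of a type and less RNA per cell cannot be told apart.

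**Figure D1:**
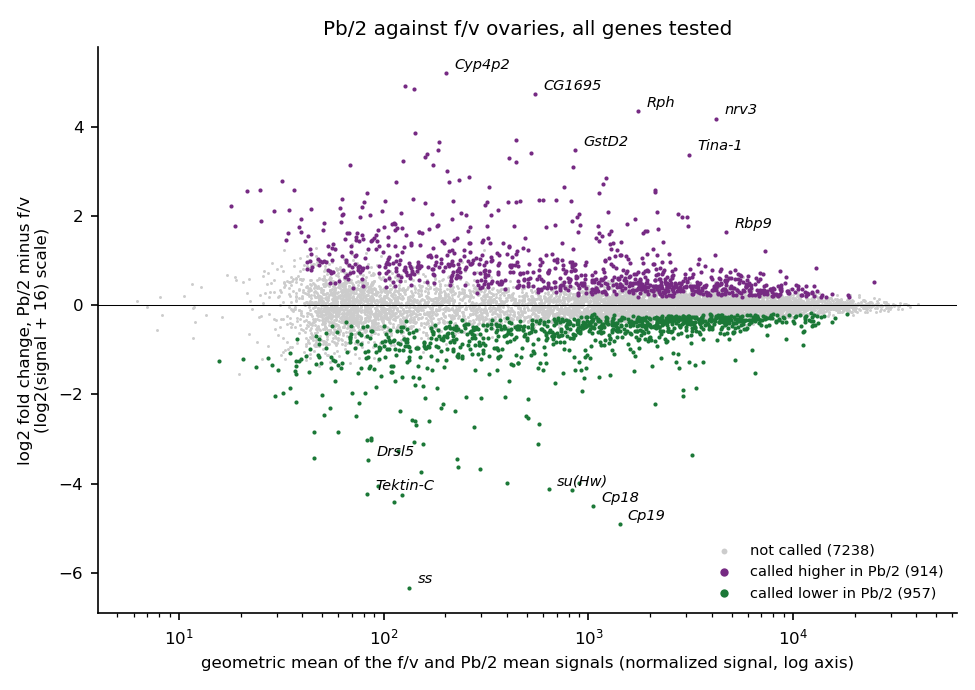
Fitted log2 fold change of each gene (Pb/2 minus f/v, y axis, on the log2(signal + 16) scale) against the geometric mean of its signal in both groups (x axis, log scale). Purple points are the 914 genes called higher and green points the 957 called lower. Plotted values are fitted ones, and a gene below background in 1 group, such as ss (lowest) or Cyp4p2 (highest), has only a bound there.

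Genes known from nerve cells were among those that rose. Rbp9, named for its known role, was not among the 15 largest rises. It read 2917, 2248 and 2829.6 in f/v and 8188, 8321 and 8265 in Pb/2, with every Pb/2 array above every f/v array. Rbp9 rose by 1.64 ± 0.11 (adjusted p = 3.5e-06), whereas the change of its dimmer probe set, 0.11, was not called (adjusted p = 0.73). Wild type averaged 3583 and 2/v 9169.5. f/v was lower than wild type (-0.43 ± 0.11, adjusted p = 0.013) and Pb/2 higher (1.21 ± 0.11, adjusted p = 1.6e-05), so that the fertile mutant lay slightly below wild type and both sterile mutants above it. Rph and nrv3 were among the 15 largest. Rph, the gene of rabphilin, a Rab effector of synaptic vesicles, read 384, 371 and 380.2 in f/v and 7772, 7796 and 8668 in Pb/2. That is a rise of 4.36 ± 0.09 (adjusted p = 7.9e-10). The wild type level of Rph, 136, was below that of f/v (1.38 ± 0.09, adjusted p = 1.5e-06), and 2/v reached 10004. nrv3, a nervous system beta subunit of the sodium-potassium pump, read 1015, 850.1 and 1078 in f/v and 18525, 18386 and 17321 in Pb/2 (4.19 ± 0.10, adjusted p = 1.6e-09). Here wild type, at 2835, lay between the groups, since f/v was lower than wild type (-1.52 ± 0.10, adjusted p = 1.2e-06) and Pb/2 higher (2.67 ± 0.10, adjusted p = 1.3e-08).

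Of the others among the 15, CG1695 read 82.8, 129 and 86.8 in f/v and 2995, 2688 and 3375 in Pb/2 (4.73 ± 0.15, adjusted p = 1.5e-08), and 2/v averaged 2771. Prx6c, a peroxiredoxin gene, read 146, 119.7 and 85.6 in f/v and 1802, 1684 and 1572 in Pb/2 (3.70 ± 0.15, adjusted p = 1.1e-07). The 15 largest rises and the 15 largest falls were taken only from called genes whose groups did not overlap. Groups did not overlap for 38% of all genes, called or not. The glutathione S-transferase gene GstD2 read 230.1, 294 and 228 in f/v and 2696, 3201 and 2919.7 in Pb/2 (3.48 ± 0.15, adjusted p = 1.5e-07). It was higher still in 2/v, which averaged 6369, and Pb/2 was below 2/v (-1.11 ± 0.15, adjusted p = 0.0012). Mob2, of the Mob family of kinase activators, read 139, 161 and 159.9 and 1843, 1701 and 1797 (3.41 ± 0.09, adjusted p = 4.8e-09), and its other probe set rose less (0.92 ± 0.17, adjusted p = 0.0038). Syn2, a syntrophin-like gene unrelated to synapsin, was below background on every f/v array (41.6, 16.4 and 35.1) and read 642, 585 and 716 in Pb/2 (adjusted p = 5.9e-07), at least 9.71-fold higher. The cytochrome P450 gene Cyp6a17 was likewise below background in f/v (50.9, 60.1 and 26.9) and read 736, 833 and 678 in Pb/2 (adjusted p = 6.8e-07), at least 11.2-fold higher. A bound of this kind sets the mean of the brighter group against the background, or against the dim probe set's own signal where that is higher. It is given, in place of the fitted fold change, where every array of the dimmer group was below background. The largest rises and falls were ranked by fitted values, so that the rank of such a gene carries no meaning. Pde6, a cyclic GMP phosphodiesterase gene, read 63.2, 38.6 and 30 in f/v and 518, 599.9 and 598 in Pb/2 (adjusted p = 6.2e-07), at least 8.58-fold higher.

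Several of the 15 largest rises set Pb/2 apart from 2/v as well as from f/v. 2/v and f/v share the allele su(Hw)v. The cytochrome P450 gene Cyp4p2 was below background in f/v (26.8, 30.4 and 21.5), in 2/v (49.1, 15.7 and 36.4) and in wild type (20.9, 29.1 and 3.7) and read 1439, 1466 and 1761 in Pb/2. It was at least 23.3-fold higher in Pb/2 than in f/v (adjusted p = 1.3e-06), and differed from 2/v as well (adjusted p = 8.1e-06). CG31219 gave the same order, with 20.8, 24.3 and 13.7 in f/v, 975, 989.9 and 1036 in Pb/2 (adjusted p = 1.4e-05, at least 15-fold) and means of 16 in wild type and 23 in 2/v. CG13032 did so too, with 47.3, 65.7 and 34.5 in f/v and 694, 737 and 657 in Pb/2 (adjusted p = 2.2e-05, at least 10.5-fold). Pb/2 was thus the bright genotype for these 3 genes. CG4210 was below background in f/v (17.9, 2.29 and 32.4) and 2/v (9.22, 8.12 and 45.2), read 886, 889 and 1005 in Pb/2 (adjusted p = 9.6e-06, at least 13.9-fold) and was brightest in wild type (1697, 1605 and 1581). Over all genes, 1859 (20.4%) were called between Pb/2 and 2/v.

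As for CG4210, the wild type was far above f/v for Tina-1 and CG42565. Tina-1 read 939, 935 and 983 in f/v and 9941, 11049 and 9304 in Pb/2 (3.38 ± 0.08, adjusted p = 1.8e-09). Wild type arrays read 13948, 15054 and 15852, and 2/v averaged 11612. f/v was below wild type by more (-3.95 ± 0.08, adjusted p = 6.6e-10) than Pb/2 (-0.57 ± 0.08, adjusted p = 0.00038). CG42565 was below background in f/v (50.6, 50.3 and 30.4), read 591, 638 and 594 in Pb/2 (adjusted p = 3.1e-07, at least 9.13-fold) and averaged 8225 in wild type. Both mutants were below wild type for this gene (adjusted p = 8.8e-10 in f/v, and -3.72 ± 0.17, adjusted p = 7.2e-08 in Pb/2).

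**Figure D2:**
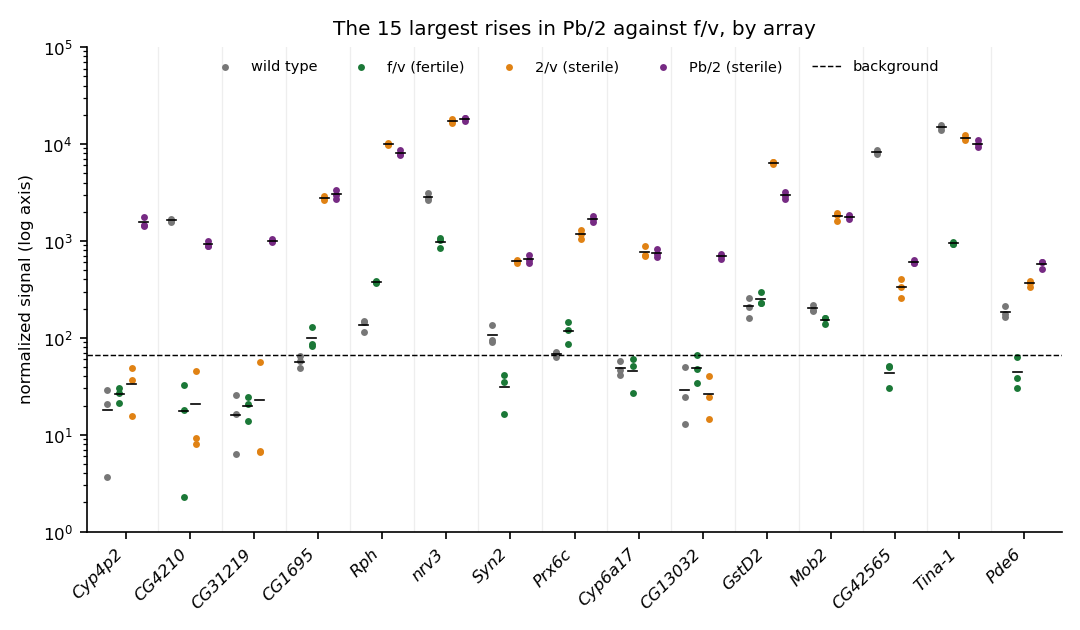
Normalized signal (y axis, log scale) of the 15 genes with the largest rises in Pb/2 against f/v, in each of the 12 arrays, coloured by genotype, with the mean as a bar and background as a dashed line. Every Pb/2 array lies above every f/v array, by the way the genes were chosen. For CG1695, Rph, nrv3, GstD2 and Mob2 the 2/v arrays are high with Pb/2, and for Cyp4p2, CG31219, CG13032 and CG4210 they are low with f/v.

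One of the 15 largest falls was that of ss, the gene spineless, which encodes a transcription factor known for antennal and leg identity. ss read 2096, 1976 and 1900.3 in f/v and 11.4, 7.45 and 7.95 in Pb/2, at least 29.9-fold lower (adjusted p = 1.8e-09). Wild type (5.14, 1.32 and 5.15) and 2/v (6.97, 11.3 and 1.33) were also below background. The bright group was therefore f/v, which was above wild type (adjusted p = 8.8e-10). Drsl5, a gene of the drosomycin family of antifungal peptides, gave the same order, with 363, 382 and 341 in f/v and 34.9, 9.06 and 14.7 in Pb/2 (adjusted p = 3.0e-06, at least 5.44-fold) and a wild type mean of 25.4. Tektin-C, whose family is known from the microtubules of cilia and sperm tails, read 457, 619 and 522 in f/v and 11, 15.5 and 12.6 in Pb/2 (adjusted p = 3.0e-07, at least 7.95-fold). It was bright in 2/v as well (780.1, 688 and 703), so that Pb/2 differed from both genotypes that carry su(Hw)v (adjusted p = 1.1e-06 against 2/v). Wild type was dim for Tektin-C, at a mean of 44.3, and f/v was above wild type (3.23 ± 0.21, adjusted p = 1.2e-06). LManVI, a lysosomal alpha-mannosidase gene, read 929, 935 and 829 in f/v and 48.6, 78.9 and 48.6 in Pb/2 (-3.64 ± 0.17, adjusted p = 2.5e-07), where 1 of 3 arrays was above background. Wild type averaged 1412 and 2/v 283, and Pb/2 was below 2/v (-2.01 ± 0.17, adjusted p = 7.5e-05).

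**Figure D3:**
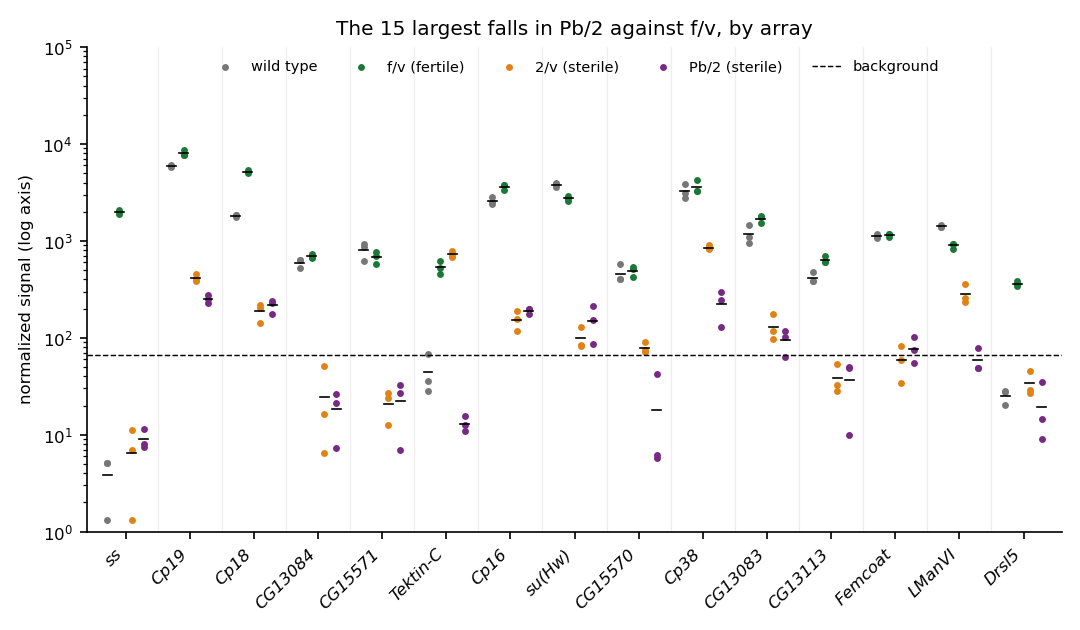
Normalized signal (y axis, log scale) of the 15 genes with the largest falls in Pb/2 against f/v, in each of the 12 arrays, coloured by genotype, with the mean as a bar and background as a dashed line. Of these genes 5 are on the vitelline membrane and other eggshell list and 4 on the chorion list, and for those 9 the wild type arrays are high with f/v and the 2/v arrays lie well below both. For ss and Drsl5 f/v is the bright genotype.

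Chorion genes made up the clearest group of falls. Of the 7 chorion genes tested 6 fell (85.7%, beside 10.5% of all genes called lower), with a median of -3.99 beside -0.02 over all genes. Cp19 read 7697, 8559 and 7761 in f/v and 275, 230.1 and 249.6 in Pb/2 (-4.91 ± 0.09, adjusted p = 3.8e-10). Cp18 went from 5079, 5424 and 5052 to 175, 242 and 230.0 (-4.50 ± 0.15, adjusted p = 2.3e-08). Cp16 went from 3796, 3803 and 3311 to 196, 175 and 197 (-4.15 ± 0.14, adjusted p = 2.4e-08). All 3 encode structural chorion proteins. Cp38 read 3278, 4270.0 and 3271 in f/v and 243, 129 and 295 in Pb/2 (-3.99 ± 0.25, adjusted p = 1.7e-06), and Cp36 10213, 10219.5 and 10566 and 1032, 994 and 950.2 (-3.36 ± 0.07, adjusted p = 6.2e-10). Cp15 changed by -1.52 ± 0.17, adjusted p = 0.00014. Cp7Fc, at -0.39 (adjusted p = 0.098), did not pass the test. The chorion genes differed in how far they fell in the other sterile genotype. Cp36 averaged 3402 in 2/v and 992 in Pb/2 (-1.76 ± 0.07, adjusted p = 3.5e-07), and Cp38 averaged 851 and 222 (-1.93 ± 0.25, adjusted p = 0.00091). For Cp18 (0.19 ± 0.15, adjusted p = 0.4) and Cp16 (0.29 ± 0.14, adjusted p = 0.17) the difference between the sterile genotypes did not pass the test. Cp18 was higher in f/v than in wild type, which averaged 1824 (1.5 ± 0.15, adjusted p = 3.4e-05), and so, by less, was Cp19 (0.44 ± 0.09, adjusted p = 0.0028).

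The vitelline membrane and other eggshell list divided. Of its 21 genes tested 13 fell and 5 rose (85.7%, beside 20.5% of all genes), with a median of -1.61. With arrays scaled to the hybridization controls 2 rose and 13 fell. Several CG-numbered genes of the list fell. CG13084 read 663, 737 and 682 in f/v and was below background in Pb/2 (26.3, 7.33 and 21.4), at least 10.4-fold lower (adjusted p = 9.4e-06). CG15571 read 693, 774 and 577 and 27, 7.02 and 32.5 (adjusted p = 2.6e-06, at least 10.2-fold). For CG13083 the signals were 1516, 1800.0 and 1774 in f/v and 63.9, 118 and 102 in Pb/2 (-3.98 ± 0.24, adjusted p = 1.4e-06), with 2 of 3 Pb/2 arrays above background. CG13113 fell from 599, 598 and 700.2 to 9.99, 50 and 49.1 (adjusted p = 2.0e-05, at least 9.49-fold). The wild type means of these 4 genes, 595, 798, 1170.0 and 415, lay on the side of f/v. Femcoat, an eggshell protein gene, read 1088, 1166 and 1167 in f/v and 101, 74.1 and 54.3 in Pb/2 (-3.67 ± 0.23, adjusted p = 1.9e-06), again with 2 of 3 above background. CG15570, which is next to CG15571 among the genes tested and on no list, fell from 536, 514 and 425 to 5.7, 42.2 and 6.19 (adjusted p = 1.3e-05, at least 7.36-fold).

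Members of the same list that went the other way or changed little are named here after their values were seen. dec-1, listed as dec and encoding precursors of eggshell proteins, changed by 0.76 ± 0.09, adjusted p = 0.00022. The vitelline membrane genes Vm26Ac (0.58 ± 0.07, adjusted p = 0.00027) and Vm26Aa (0.44 ± 0.09, adjusted p = 0.0065) and psd (0.67 ± 0.09, adjusted p = 0.00049), which codes for an eggshell assembly protein, rose. Vm32E (0.08, adjusted p = 0.66) and Vm34Ca (0.20, adjusted p = 0.053) did not pass the test. yellow-g (-2.66 ± 0.17, adjusted p = 1.7e-06), yellow-g2 (-2.10 ± 0.12, adjusted p = 7.1e-07) and the peroxidase-related gene Pxt (-0.77 ± 0.08, adjusted p = 0.00014), all with roles in the eggshell, fell. Split by name after the values were seen, 7 of the 7 CG-numbered members fell (median -3.75, or -3.25 with 4 of them at their bounds), and of the 14 with other names 5 rose and 6 fell (median 0.03).

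**Figure D4:**
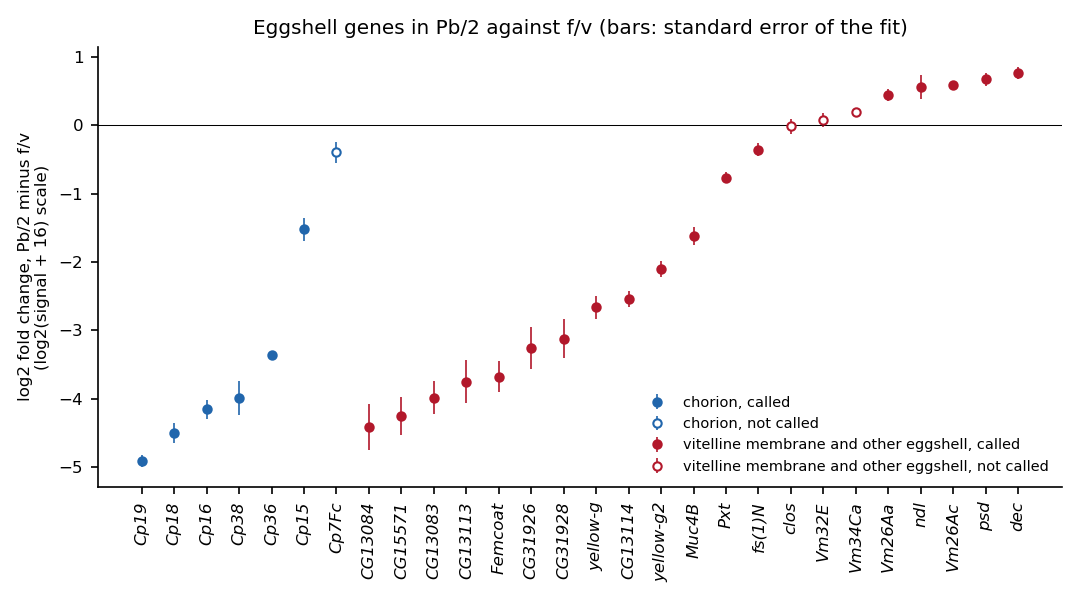
Fitted log2 fold change (y axis, Pb/2 minus f/v, on the log2(signal + 16) scale, bars standard error of the fit) of the 7 chorion genes (blue) and the 21 genes of the vitelline membrane and other eggshell list (red). Filled points passed the test. The chorion genes run from -4.91 to -0.39, and the other list reaches 0.76 at its upper end, with psd and the Vm26A genes above 0.

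Yolk and germline genes moved little beside the eggshell. The shares called were 16.7% of yolk genes, 16.7% of germline markers and 33.3% of oocyte patterning genes, beside 20.5% of all genes. Yp2, a yolk protein gene, read 20314, 21632 and 20593 in f/v and 29891, 30610.1 and 28807 in Pb/2 (0.51 ± 0.06, adjusted p = 0.00015, and adjusted p = 0.059 where arrays were scaled to the hybridization controls). It was 1 of 6 yolk genes that passed the test. Of the 12 germline markers, which summed to 89800 to 99002 in f/v and 86853 to 95742 in Pb/2, 2 fell. nanos is a translational repressor needed for germline stem cells and posterior patterning. It read 9299, 8925 and 9936 in f/v and 6183, 6108 and 5490.2 in Pb/2 (-0.66 ± 0.09, adjusted p = 0.0004). Its groups did not overlap, as for 38% of all genes. bam, the differentiation factor of the cystoblast, changed by -0.50 ± 0.13, adjusted p = 0.019, and this call was lost without f/v replicate 1 (adjusted p = 0.069). Of 24 genes of oocyte patterning and localization 5 fell and 3 rose, and 7 fell and 0 rose where arrays were scaled to the hybridization controls. With arrays centred on their medians 3 fell and 1 rose. The list's median was -0.07. Without 1 array the rises were 0 (Pb/2 replicate 1 or 3, f/v replicate 2 or 3) or 1, and the falls 3 except without f/v replicate 3. exu, needed to localize bicoid RNA, read 5629, 6088 and 6028 in f/v and 3871, 3961 and 3752 in Pb/2 (-0.61 ± 0.11, adjusted p = 0.003), and its dimmer probe set did not pass the test (adjusted p = 0.25). bcd, which codes for the anterior determinant, read 1912, 1842 and 1860.3 and 1366, 1290.1 and 1434 (-0.45 ± 0.07, adjusted p = 0.00082). Its dimmer probe set did not pass either (adjusted p = 0.34). For bcd f/v was above wild type (0.55 ± 0.07, adjusted p = 0.00011), and Pb/2 did not pass that test (0.10 ± 0.07, adjusted p = 0.29). osk (-0.09), grk (0.08) and stau (0.03) did not pass the test (adjusted p = 0.6, 0.78 and 0.87).

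Of 30 genes of the piRNA pathway, which silences transposons in the germline, 10 rose (33.3%, beside 10% of all genes called higher) and 0 fell, with a median of 0.22, whereas 0 rose and 2 fell where arrays were scaled to the hybridization controls. At an unadjusted p below 0.05 13 were higher and 3 lower in limma. tej, a Tudor domain gene, read 4515, 4172 and 4469 in f/v and 6679, 6854 and 6431 in Pb/2 (0.60 ± 0.07, adjusted p = 0.00016). cuff and rhi, partners in transcription of piRNA clusters, rose too, cuff from 1335, 1394 and 1304 to 1949, 1795 and 2000.1 (0.50 ± 0.07, adjusted p = 0.00064). rhi went from 1699, 1672 and 1545 to 2410.1, 2061 and 2114 (0.42 ± 0.07, adjusted p = 0.0029) and was higher again in 2/v (3638), which Pb/2 differed from (-0.73 ± 0.07, adjusted p = 0.00023). armi, an RNA helicase gene, read 8024, 7391 and 7688 in f/v and 10914, 10772 and 10920.5 in Pb/2 (0.50 ± 0.08, adjusted p = 0.0022). For armi f/v was below wild type (-0.46 ± 0.08, adjusted p = 0.0019), and Pb/2 did not pass the test against wild type (0.03 ± 0.08, adjusted p = 0.79). Pb/2 was above wild type for tej, cuff and rhi (adjusted p = 0.015, 0.031 and 2.1e-06). The groups did not overlap for these 4 genes, as for 38% of all genes. Each of the 4 lost its call where arrays were scaled to the hybridization controls (adjusted p = 0.062 for tej, 0.21 for cuff, 0.41 for rhi and 0.18 for armi). piwi (0.33, adjusted p = 0.18) and aub (0.19, adjusted p = 0.082), the Argonaute genes of the pathway, did not pass the test. The count of rises was 5 without Pb/2 replicate 1 or f/v replicate 2 and 6 without Pb/2 replicate 2.

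Lists of genes known from neurons held a few large rises among many genes that did not pass. Of 23 synaptic vesicle genes 3 rose and 1 fell, a share of 17.4% beside the 20.5% over all genes, and 3 rose and 3 fell where arrays were scaled to the hybridization controls. With Rph above, the rises were those of Nlg2, a neuroligin, from 77.7, 72.9 and 68.5 to 461, 746 and 584 (2.76 ± 0.27, adjusted p = 5.9e-05, though its other probe set read 0.30 with adjusted p = 0.60), and nSyb, synaptobrevin. nSyb was below background in f/v (50.4, 15.7 and 29.9) and read 86, 121 and 85.7 in Pb/2 (adjusted p = 0.013), at least 1.45-fold higher. cpx, the gene of complexin, fell from 251, 272 and 257 to 179, 151 and 159.8 (-0.63 ± 0.13, adjusted p = 0.0074). Of 36 ion channel and pump genes 5 rose and 2 fell (19.4%), and 4 rose and 5 fell where arrays were scaled to the hybridization controls. SK, a calcium-activated potassium channel, read 340.0, 189.5 and 212 in f/v and 1596, 976 and 1422 in Pb/2 (2.37 ± 0.30, adjusted p = 0.00034), and its other probe set rose as well (2.12 ± 0.20, adjusted p = 5.0e-05). Ih, a cation channel opened by hyperpolarization, read 1212, 1211 and 1188 and 3921, 4168 and 3941 (1.72 ± 0.06, adjusted p = 1.9e-08). Shal, an A-type potassium channel, went the other way, from 503, 603 and 547 to 297, 364 and 273 (-0.80 ± 0.14, adjusted p = 0.0025). For SK f/v was below wild type (-1.55 ± 0.30, adjusted p = 0.0028), and Pb/2 did not pass the test against wild type (0.82 ± 0.30, adjusted p = 0.062). Pb/2 was above wild type for Nlg2, nSyb and Ih (adjusted p = 3.8e-06, 0.022 and 5.4e-06).

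Of 9 neuronal RNA-binding protein genes 3 rose, Rbp9, pum and Rbfox1, with a median of 0.27 (0.284 relative to all genes, and 0.028 where the probe sets of each gene were averaged). The shares called were 33.3% of this list and 29.4% of the axonal and glial list, beside 20.5% of all genes. pum, a translational repressor that also acts in germline stem cells, read 3924, 3322 and 3292 in f/v and 5296, 5466 and 5424 in Pb/2 (0.62 ± 0.11, adjusted p = 0.0023), while its other probe set read -0.23 and did not pass (adjusted p = 0.084). Where arrays were scaled to the hybridization controls, 1 of the 3 calls remained and pum did not pass (adjusted p = 0.14). Rbfox1, at 0.32 ± 0.09, adjusted p = 0.026, lost its call without Pb/2 replicate 1 or 2 (adjusted p = 0.094 and 0.065) and without f/v replicate 2 or 3 (adjusted p = 0.093 and 0.082). For pum and Rbfox1 f/v was below wild type (-0.64 ± 0.11, adjusted p = 0.0011, and -0.30 ± 0.09, adjusted p = 0.022). For both, Pb/2 did not pass the test against wild type (-0.02 ± 0.11, adjusted p = 0.91, and 0.02 ± 0.09, adjusted p = 0.88), whereas for Rbp9 it was above wild type. elav, the pan-neuronal marker, was at 0.01 (adjusted p = 0.98). Of 17 axonal and glial genes 5 rose, with a median of 0.28 (0.16 with 1 gene at its bound), but 1 rose and 2 fell where arrays were scaled to the hybridization controls, and 2 rose without Pb/2 replicate 1 or 2 or f/v replicate 2 or 3, and 3 without f/v replicate 1. fra, the netrin receptor gene frazzled, went from 1581, 1256 and 1641 to 2536, 2646 and 2428 (0.77 ± 0.11, adjusted p = 0.00078) and kept its call under every alternative run. For fra too f/v was below wild type (-0.66 ± 0.11, adjusted p = 0.0011), and Pb/2 did not pass the test against wild type (0.10 ± 0.11, adjusted p = 0.53). The 5 neuron and glia markers measured summed to 506 to 642 in f/v and 670 to 737 in Pb/2, with 2 and 3 of them above background, and their part in these rises was not tested.

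Among genes of the follicle cells and of egg chamber growth most were not called. The shares called were 14.3% of the follicle cell list, 24.1% of the replication list and 22.7% of the actin list, beside 20.5% of all genes. Of 21 follicle cell and somatic gonad genes 2 rose and 1 fell, and 0 rose and 2 fell where arrays were scaled to the hybridization controls. The rises were 1 without Pb/2 replicate 1 or f/v replicate 1 or 3, and the falls 0 without Pb/2 replicate 3 or f/v replicate 1. kek1, an inhibitor of the EGF receptor, read 276, 261 and 291 in f/v and 386, 449 and 402 in Pb/2 (0.55 ± 0.12, adjusted p = 0.0074, and adjusted p = 0.11 where arrays were scaled to those controls). The 6 follicle cell markers measured summed to 8189 to 9402 in f/v and 9124 to 10307 in Pb/2. Of these markers only cas was called, and it fell, from 704, 490 and 518 to 373, 346 and 275 (-0.75 ± 0.19, adjusted p = 0.02). Of 29 genes of replication, endocycle and amplification 5 fell and 2 rose, 10 fell and 0 rose where arrays were scaled to the hybridization controls, and 2 fell and 2 rose with arrays centred on their medians. Cdc7, the origin firing kinase that also acts in chorion gene amplification, read 4700.2, 4378 and 4459.9 in f/v and 1724, 1682 and 1667 in Pb/2 (-1.41 ± 0.06, adjusted p = 1.1e-07), with wild type at 4706 and 2/v at 1854. The count of falls in this list was 1 without Pb/2 replicate 1, 2 without f/v replicate 2 and 3 without f/v replicate 3. Of 22 actin and Arp2/3 genes 4 fell and 1 rose, 2 fell without Pb/2 replicate 3 or f/v replicate 3, and 3 rose without f/v replicate 1. Arpc1, an Arp2/3 subunit needed for ring canals, read 5386, 6379 and 5885 in f/v and 1404, 1391 and 1494 in Pb/2 (-2.03 ± 0.11, adjusted p = 7.0e-07). It was far lower in wild type, at 151, and f/v was above wild type (5.14 ± 0.11, adjusted p = 6.6e-10). sn, the gene of fascin, fell from 5099, 5056 and 5379 to 4141, 4012 and 4030.4 (-0.35 ± 0.06, adjusted p = 0.0032). For sn f/v was above wild type (0.40 ± 0.06, adjusted p = 0.00079), and Pb/2 did not pass that test (0.05 ± 0.06, adjusted p = 0.61).

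Of 23 cell death and engulfment genes 3 rose and 1 fell, and 1 rose and 4 fell where arrays were scaled to the hybridization controls. The shares called were 17.4% of this list and 29.2% of the ecdysone list, beside 20.5% of all genes. Strica, a caspase gene, read 760.4, 612 and 739 in f/v and 1447, 1201 and 1319 in Pb/2 (0.90 ± 0.12, adjusted p = 0.0005), and 2/v was higher at 1974. Atg1, the kinase that starts autophagy, fell from 2503, 2462 and 2464 to 1852, 1846 and 1583 (-0.49 ± 0.08, adjusted p = 0.0021). Dark (0.35 ± 0.09, adjusted p = 0.025) and egr (0.38 ± 0.10, adjusted p = 0.026), genes of the apoptosome adaptor and of a TNF ligand, were the other rises. Dark lost its call without Pb/2 replicate 1 or 3 (adjusted p = 0.056 and 0.079) or f/v replicate 2 (0.088). egr lost its call without Pb/2 replicate 1 or 2 (adjusted p = 0.09 and 0.068) or f/v replicate 2 or 3 (0.092 and 0.057). In the list 1 gene rose without Pb/2 replicate 1 or f/v replicate 2. Of 24 ecdysone genes 4 rose and 3 fell, and 2 rose and 5 fell where arrays were scaled to the hybridization controls. The falls were 1 without any one array of the 6 but Pb/2 replicate 2. Hr3, a nuclear receptor of the ecdysone response, was below background in f/v (27.9, 4.05 and 35.6) and read 185, 140.1 and 192 in Pb/2 (adjusted p = 0.00031), at least 2.57-fold higher. Its wild type mean was 123, and Pb/2 did not pass the test against wild type (0.44 ± 0.30, adjusted p = 0.3). sro, a gene of ecdysone synthesis, rose from 1448, 1677 and 1677 to 2873, 2736 and 2921 (0.83 ± 0.08, adjusted p = 3.9e-05), and wild type, at 3619, was above both. Of 17 Notch and JAK/STAT genes 0 passed the test in limma, and at an unadjusted p below 0.05 3 were higher and 1 lower. With scaling to the controls 2 fell, and with arrays centred on their medians 1 rose.

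Some genes of other cell types that a dissected ovary can carry also moved. The shares called were 28.6% of the basement membrane list and 50% of the fat body list, beside 20.5% of all genes. Of 18 hemocyte genes 6 fell and 1 rose (38.9%, beside 20.5% of all genes), and 9 fell and 0 rose where arrays were scaled to the hybridization controls. The median was -0.40 (-0.377 relative to all genes, and -0.032 with the stricter filter on dim probe sets). NimC1, a phagocytosis receptor of plasmatocytes, read 573, 599 and 545 in f/v and 187, 170.4 and 202 in Pb/2 (-1.54 ± 0.14, adjusted p = 3.4e-05), with 2/v at 168 and wild type at 749. NimB2 (-1.13 ± 0.13, adjusted p = 0.00018) and NimC4 (-1.45 ± 0.25, adjusted p = 0.0026), of the same family, fell as well. The 7 hemocyte markers summed to 3133 to 3586 in f/v and 1982 to 2592 in Pb/2, and 4 of the 7 fell. Of 14 basement membrane genes, a product of hemocytes, fat body and follicle cells, 4 fell, but 0 did with arrays centred on their medians. The count was 1 without Pb/2 replicate 1 or 2 and 2 without f/v replicate 1 or 2. Of 16 fat body genes 5 fell and 3 rose, 5 fell and 0 rose where arrays were scaled to the hybridization controls, and 3 fell without Pb/2 replicate 1. Lsd-1, a perilipin of lipid droplets, read 1542, 1595 and 1424 in f/v and 861, 831 and 843 in Pb/2 (-0.83 ± 0.08, adjusted p = 4.8e-05). Wild type averaged 757 for Lsd-1 and 2/v 1684. f/v was above wild type (0.99 ± 0.08, adjusted p = 7.2e-06), and Pb/2 did not pass that test (0.16 ± 0.08, adjusted p = 0.16). Fbp1 changed by -0.87 ± 0.08, adjusted p = 4.2e-05. The 4 fat body markers measured summed to 4338 to 4760 in f/v and 3539 to 3573 in Pb/2.

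Of 27 gut genes 7 fell and 6 rose (48.1%, beside 20.5% of all genes), and digestive enzymes stood on both sides. Jon99Ci, a serine protease gene, read 239.5, 296 and 321 in f/v and was below background in Pb/2 (35, 33.2 and 3.69, adjusted p = 6.4e-05, at least 4.26-fold). Jon25Biii, of the same family, fell from 542, 802 and 577 to 150.4, 137 and 128 (-2.07 ± 0.13, adjusted p = 1.7e-06). Bace, above background on 1 of 3 f/v arrays, went the other way, from 22.3, 68.2 and 30.1 to 207, 226 and 338 (2.34 ± 0.27, adjusted p = 0.00018), with wild type far above both at 1906. The 5 gut markers measured summed to 806 to 952 in f/v and 1068 to 1218 in Pb/2. Of 23 muscle genes 2 fell (8.7%), among them Mlc2, a myosin light chain gene, from 4713, 4139.8 and 4458 to 3283, 3276 and 3325 (-0.43 ± 0.07, adjusted p = 0.0023). The count of muscle genes that fell was 1 without Pb/2 replicate 1, 4 without Pb/2 replicate 3 and 4 where arrays were scaled to the hybridization controls. Muscle markers summed to 22104 to 24347 in f/v and 21013 to 22209 in Pb/2, and fln was below background on every array of both groups. Of 15 testis genes tested 3 rose and 2 fell (1 without any one of the 6 arrays), a share of 33.3%. Of the 6 testis markers, can, dj, Mst87F and betaTub85D were below background on every array of both groups. The marker aly was called higher, from 44, 67.3 and 46.4 in f/v to 110, 109 and 100 in Pb/2 (0.85 ± 0.15, adjusted p = 0.0023). The part of these cell types in the results was not tested.

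Stress, immune and detoxification genes moved in both directions. The shares called were 50% of the heat shock list and 30.8% of the immune list, beside 20.5% of all genes. Of the 12 genes of the heat shock and stress list 5 were called lower and 1 higher. Hsp68 read 4158, 4392 and 3485 in f/v and 2143, 1574 and 1922 in Pb/2 (-1.09 ± 0.13, adjusted p = 0.0002), and Hsp26, a small heat shock protein gene, 15020.3, 15686 and 14753 and 8404, 7423 and 8699 (-0.89 ± 0.08, adjusted p = 2.0e-05). DnaJ-1, a co-chaperone gene, fell from 14532, 13529.8 and 13015 to 9178, 9408 and 8616 (-0.59 ± 0.07, adjusted p = 0.00017). The count of falls was 3 without f/v replicate 3 and with arrays centred on their medians. TotC, a secreted stress protein gene, was the rise, below background in f/v (43.8, 61.8 and 59.3) and at 342, 403 and 315 in Pb/2 (adjusted p = 8.9e-06, at least 5.29-fold). Of 26 antimicrobial and immune genes 5 rose and 3 fell, and 4 rose and 5 fell where arrays were scaled to the hybridization controls. Without Pb/2 replicate 2 or f/v replicate 2, 3 rose. Drs, the antifungal peptide drosomycin, fell from 2394, 2259 and 2544 to 1237, 1158 and 1049 (-1.05 ± 0.10, adjusted p = 4.0e-05). PGRP-LB, which degrades peptidoglycan, rose from 208, 265 and 219.9 to 636, 558 and 698 (1.39 ± 0.13, adjusted p = 4.0e-05).

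Of 64 cytochrome P450 genes 9 rose and 7 fell, a share of 25% (4 fell without f/v replicate 1 or 3), and of 32 glutathione S-transferase genes 6 rose and 5 fell (34.4%, beside 20.5% of all genes). Where arrays were scaled to the hybridization controls, these became 6 and 17, and 3 and 7. Cyp28d1 rose from 176, 113 and 134 to 449, 449 and 528 (1.66 ± 0.15, adjusted p = 3.0e-05), whereas Cyp6a23 fell from 1738, 1252 and 1829 to 648, 615 and 499 (-1.42 ± 0.17, adjusted p = 0.00027). GstZ1 read 36.1, 79.9 and 83.3 in f/v and 587, 591 and 684 in Pb/2 (3.0 ± 0.21, adjusted p = 3.6e-06), with 2 of 3 f/v arrays above background and wild type far above both at 2721. GstE5 fell from 431, 451 and 329.9 to 165, 159 and 215 (-1.10 ± 0.19, adjusted p = 0.0028). Wild type averaged 72.3 for GstE5, and f/v (adjusted p = 1.2e-05) and Pb/2 (adjusted p = 0.0011) were both above it. Of 26 odorant-binding protein genes 4 rose and 4 fell (30.8%), and 7 fell where arrays were scaled to the hybridization controls. Obp69a was below background in f/v (63, 63.9 and 31.7) and read 571, 583 and 577 in Pb/2 (adjusted p = 3.1e-06, at least 8.68-fold), and Pb/2 was above 2/v too (adjusted p = 1.6e-05). Obp19c fell from 246, 315 and 271 to 96, 73.3 and 69.8 (-1.62 ± 0.17, adjusted p = 8.0e-05).

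Of 39 ribosomal protein genes 3 were called (7.69%) and of 49 oxidative phosphorylation genes 3 (6.12%), beside 20.5% of all genes, and the difference in share was not tested. Where arrays were scaled to the hybridization controls, 9 of the oxidative phosphorylation genes fell and 1 rose, and 3 ribosomal protein genes fell. RpS10a, a paralog of RpS10b, read 419, 550.5 and 494 in f/v and 216, 265 and 247 in Pb/2 (-0.96 ± 0.13, adjusted p = 0.00053) and averaged 3210.0 in 2/v, from which Pb/2 differed by -3.64 ± 0.13 (adjusted p = 3.5e-07). ND-13B, a complex I subunit gene, read 8966, 10320.3 and 9788 and 17773, 17002 and 16761 (0.83 ± 0.07, adjusted p = 1.6e-05). f/v and 2/v, which averaged 8158, were low here, and Pb/2 lay at the wild type mean of 17178. Of 20 meiosis genes 1 was called lower (5%), and 5 where arrays were scaled to the hybridization controls. Of 24 DNA damage genes 3 were called lower (12.5%), and 0 with arrays centred on their medians. Hus1-like, of the checkpoint clamp, fell from 1652, 1727 and 1595 to 1374, 1339 and 1339 (-0.29 ± 0.06, adjusted p = 0.0058, and adjusted p = 0.16 with arrays centred on their medians).

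The remaining lists held few large changes. Beside 20.5% of all genes, 31.8% of the UDP-glycosyltransferase, 26.7% of the polarity and 42.9% of the calcineurin and NFAT list were called. The shares were 16.7% for insulin and TOR, 14.8% for germline stem cells, 4% for Polycomb and 5.88% for septate junction genes. Of 42 cuticle protein genes 5 rose and 4 fell (21.4%), and 3 rose and 6 fell where arrays were scaled to the hybridization controls. Without Pb/2 replicate 3 or f/v replicate 3, 3 rose. Cpr49Ae went from 121, 173 and 99.2 in f/v to 435, 399 and 359 in Pb/2 (1.52 ± 0.15, adjusted p = 6.2e-05). Of 22 UDP-glycosyltransferase genes 3 rose and 4 fell, among them Ugt301D1, from 192, 233 and 214 to 349, 393 and 341 (0.72 ± 0.12, adjusted p = 0.0022). With scaling to the controls 1 rose and 5 fell, and 2 fell without Pb/2 replicate 2 or f/v replicate 2. Of 18 insulin and TOR genes 2 rose and 1 fell, and 0 rose and 3 fell where arrays were scaled to the hybridization controls. REPTOR, a transcription factor gene of the TOR pathway, rose from 526, 396 and 434 to 710.4, 732 and 628 (0.60 ± 0.11, adjusted p = 0.0041), and adjusted p = 0.096 with that scaling. Of 15 polarity genes 3 rose and 1 fell, but with that scaling 1 fell, and 0 rose without Pb/2 replicate 1 or 2 or f/v replicate 2 or 3. Of 27 genes of germline stem cells and cyst differentiation 1 rose and 3 fell, nanos and bam among the falls, and 0 rose and 6 fell with that scaling. Without Pb/2 replicate 3, 2 rose. Of 7 calcineurin and NFAT genes 1 rose and 2 fell, 0 rose and 4 fell with that scaling, and 0 fell with arrays centred on their medians. The falls were 1 without Pb/2 replicate 1 or 3 or f/v replicate 1 or 3. CanB, a calcineurin regulatory subunit gene, was at 95.9 in wild type, 2458, 2329 and 2720.2 in f/v and 3706, 4172 and 3117 in Pb/2 (0.54 ± 0.13, adjusted p = 0.014), and lost its call with that scaling (adjusted p = 0.24) and without Pb/2 replicate 2 or f/v replicate 2 (0.05 and 0.053). Of 25 Polycomb and heterochromatin genes 1 rose, and of 17 septate junction genes 1 fell, whereas in each list 4 fell and 0 rose with that scaling and 0 were called with arrays centred on their medians.

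**Figure D5:**
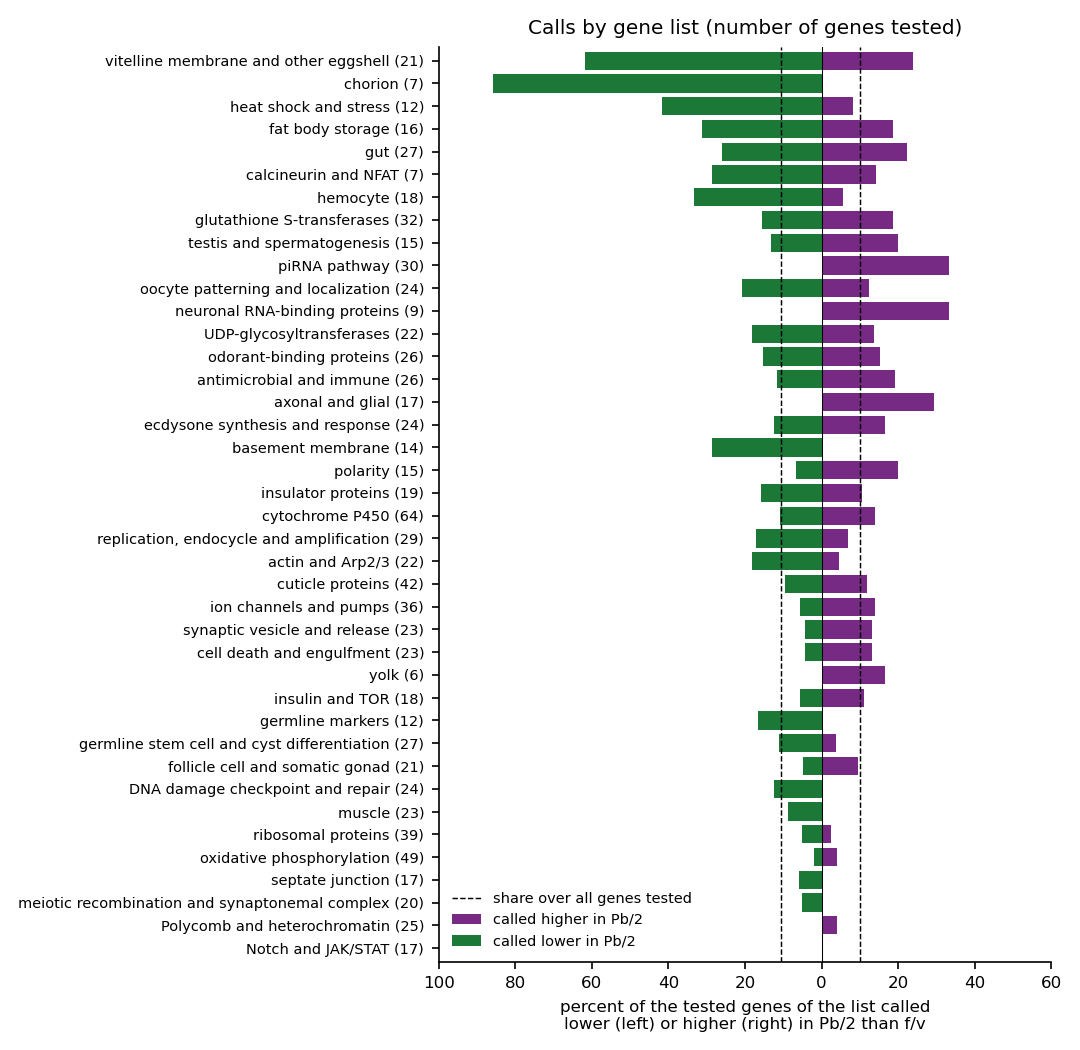
Share of the tested genes of each of the 40 gene lists called lower (green, left) or higher (purple, right) in Pb/2 than in f/v (x axis, percent), with the number of genes tested after each name. Dashed lines mark the shares over all genes, 10.5% lower and 10% higher. The chorion list and the list of vitelline membrane and other eggshell genes, both at 85.7%, stand highest.

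Among 19 genes of insulator proteins and their partners 3 fell, su(Hw) included, and 2 rose (26.3%, beside 20.5% of all genes). In this list 4 fell and 0 rose where arrays were scaled to the hybridization controls. The rises were 1 with arrays centred on their medians and without any one of the 6 arrays but f/v replicate 2. insv and Elba2, which encode BEN domain proteins with insulator activity, fell. insv read 1366, 1432 and 1401 in f/v and 976, 908 and 917 in Pb/2 (-0.58 ± 0.09, adjusted p = 0.0012). Elba2 read 1569, 1578 and 1583 and 1171, 973 and 1129 (-0.53 ± 0.09, adjusted p = 0.0025). Cp190 (0.17, adjusted p = 0.42), CTCF (-0.01, adjusted p = 0.94) and BEAF-32 (-0.10, adjusted p = 0.46), which encode other insulator proteins, did not pass the test. mod(mdg4), which codes for many isoforms with a shared start, is measured by 22 probe sets, of which 8 were called higher and 1 lower. Its brightest probe set read 3678, 4046 and 3867 in f/v and 5453, 5258 and 6178 in Pb/2 (0.54 ± 0.08, adjusted p = 0.00065, and adjusted p = 0.15 where arrays were scaled to the hybridization controls). The probe set that fell averaged 382 in f/v and 77.6 in Pb/2 (-2.09 ± 0.07, adjusted p = 2.7e-08), so that the gene has no direction of its own here. The list counts mod(mdg4) by its brightest probe set among the 2 rises, and the other was Ibf2 (0.33 ± 0.10, adjusted p = 0.037). Which isoforms the probe sets of mod(mdg4) read was not determined.

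Since the genotypes share no su(Hw) allele, the genes around su(Hw) were described as well. Of the 10 tested genes on each side 4 were called (20%), close to the 20.5% of all genes, and of the 5 on each side 3 (30%). MetRS-m, a mitochondrial methionyl-tRNA synthetase gene, rose from 783, 755 and 741 to 1114, 1261 and 1313 (0.68 ± 0.09, adjusted p = 0.00055). NK7.1, a homeobox gene, fell from 397, 411 and 371 to 259, 193 and 201 (-0.82 ± 0.12, adjusted p = 0.00077). CG14356 averaged 135 in f/v and was below background in Pb/2, at least 1.98-fold lower (adjusted p = 0.0099). Set8, next to su(Hw) among the genes tested and coding for a histone methyltransferase, changed by -0.38 ± 0.10, adjusted p = 0.027 and lost its call without Pb/2 replicate 1 or 3 (adjusted p = 0.067 and 0.079), without f/v replicate 1 or 2 (0.091 and 0.09) and with arrays centred on their medians (0.076). Widened after the data were seen, the shares were 24% of 100 genes and 21.2% of 400 genes.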

How the data were processed

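Pooled ovary RNA of 4 genotypes was measured on 12 arrays of the Affymetrix Drosophila Genome 2.0 design. For each, 50 ng of total RNA was amplified by SPIA and labelled with biotin, per the labels' protocols. The deposited values are linear intensity per probe set, summarized with GCOS per the submitters' processing notes (version not given in the sources used here), and every array has a trimmed mean of 1500 (2% off each end). Scanner files were not used here. Here log2(signal + 16) was quantile-normalized, and probe sets above the 40th percentile of their array in at least 3 arrays were kept (12618). Genes were named by the platform annotation, with symbols updated from RefSeq, and each of the 9109 genes was taken from its brightest single-gene probe set. 13647 probe sets of the array name 1 gene, 402 several and 4720 none. Group means of all 12 arrays were fitted in limma 3.58.1 (R 4.3.3, 8 residual degrees of freedom) with Benjamini-Hochberg adjustment. The fit was tested on simulated data with 200 changed genes in each of 5 runs. Log2 changes of 0.5 were recovered in 44.4% of cases, of 1 in 82.4% and of 2 in 95.6%. False calls made up 6.84% of the calls. The number of arrays limits the precision.

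Genes were named by rule, with exceptions. The rule took su(Hw), Rbp9, and the 15 largest rises and 15 largest falls among called genes whose groups did not overlap. It also took up to 5 called members of each list, and called neighbours of su(Hw). Of the exceptions, the further eggshell genes and the runs of neighbouring genes are marked where they appear. Others are not marked there, among them Cp15, Cp7Fc, osk, grk, stau, piwi, aub, elav, Cp190, CTCF and BEAF-32. Of these only Cp15 was called. The members and the 40 gene lists (878 tested genes, 6 names unmatched) were chosen with earlier results of these data known, and spellings and a few members of the lists were corrected after the files were read. Alternatives were other scalings, offsets of 1 and 64, filters, probe set rules, arrays, eBayes settings, a replicate block and the omission of each array. Replicate numbers are shared between genotypes, but residuals of same-numbered f/v and Pb/2 arrays correlated at -0.12 to 0.01, so that the samples were treated as unpaired. A planned count of a Su(Hw) core motif in promoters was not run, because no promoter sequences were used here. Gene order was taken from the RefSeq table of Release 6 plus ISO1 MT.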

Additional observations from a re-analysis of the deposited data

Results flagged for a closer look

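Of the 30 largest changes against f/v, 14 also differed between the sterile genotypes by the test of Pb/2 against 2/v itself (limma, Benjamini-Hochberg adjusted p below 0.05), 9 of them rises and 5 falls. In 5 of them 2/v lay with f/v, so that the change was large against both: Cyp4p2 (5.04 ± 0.31, adjusted p = 8.1e-06 in Pb/2 against 2/v, and 5.22 against f/v), CG31219 (4.93 ± 0.39, adjusted p = 5.2e-05, and 4.85), CG4210 (4.82 ± 0.38, adjusted p = 5.0e-05, and 4.92), CG13032 (4.11 ± 0.30, adjusted p = 2.7e-05, and 3.48) and Tektin-C (-4.67 ± 0.21, adjusted p = 1.1e-06, and -4.23). For the first 4 of these every f/v and 2/v array, and for Tektin-C every Pb/2 array, was below background, so that these are fitted values and not measured sizes, as is that of CG15570 below. In the other 9 the genes moved the same way against f/v in both sterile genotypes and differed in size. Pb/2 was further from f/v than 2/v was for CG42565 (0.87 ± 0.17, adjusted p = 0.0067), Pde6 (0.63 ± 0.18, adjusted p = 0.032), Prx6c (0.52 ± 0.15, adjusted p = 0.036), LManVI (-2.01 ± 0.17, adjusted p = 7.5e-05), Cp38 (-1.93 ± 0.25, adjusted p = 0.00091), CG15570 (-1.64 ± 0.33, adjusted p = 0.0083) and Cp19 (-0.68 ± 0.09, adjusted p = 0.00086). 2/v was further from f/v than Pb/2 was for GstD2 (-1.11 ± 0.15, adjusted p = 0.0012) and Rph (-0.31 ± 0.09, adjusted p = 0.037). The 30 genes were chosen for their size against f/v, whose arrays are not in the comparison of Pb/2 with 2/v, but the Pb/2 arrays are in both. Over all genes 20.4% were called between Pb/2 and 2/v. Single arrays were not tested for outliers, since each group holds 3.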

How the results depend on the processing

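Of the 166 named genes 87 kept their direction and their call under every alternative run, and 79 lost the call under at least 1. Of 3118 pairs of gene and alternative 2699 kept both, 415 lost the call and 4 turned direction. The 4 were other probe sets of mod(mdg4) (-2.09), pum (-0.23), CanA-14F (0.38) and par-1 (-0.24). Most calls were lost without Pb/2 replicate 1 (40), with scaling to the hybridization controls (38) and without Pb/2 replicate 2 (36). Where a call was lost with 1 array fewer, fewer samples were fitted, and otherwise the cause was not tested.

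The 1871 calls stayed within 1.5 times under each other scaling, offset, filter, probe set rule, fit and omission tried. They were 1331 to 1568 without each array in turn (653 to 752 higher, 663 to 816 lower), 1422 with the 6 arrays of Pb/2 and f/v alone and 2315 with array weights. The split was 820 higher and 586 lower with array medians subtracted, and 367 and 2063 with scaling to the hybridization controls. At an adjusted p below 0.01 996 genes were called, 525 higher and 471 lower, and at least 2-fold 440, 246 and 194. With the replicate number as a block, which the arrays do not bear out, the calls were 1510, 731 higher and 779 lower.

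List medians, relative to the median of all genes, moved by less than the spread between replicates in 691 of 720 pairs of list and alternative. With values as deposited or array medians subtracted they became -0.033 for heat shock, 0.119 for ribosomal proteins and 0.036 for oxidative phosphorylation (-0.092, 0.029 and 0.0015 as reported). With scaling to the controls they became -0.029 for heat shock and 0.11 for ribosomal proteins. With an offset of 64 chorion became -3.7 and the eggshell list -1.18 (from -3.97 and -1.59). With the stricter filter hemocyte became -0.032, heat shock -0.17, glutathione S-transferases 0.049 and odorant-binding proteins 0.059. With the mean of all probe sets neuronal RNA-binding proteins became 0.028 and ecdysone -0.0499. Without 1 array the ranges were 0.21 to 0.41 for neuronal RNA-binding proteins, -4.16 to -3.65 for chorion, 0.00036 to 0.092 for cell death, -0.061 to 0.043 for ecdysone, -0.179 to -0.0799 for heat shock, 0.029 to 0.14 for immune genes and -0.047 to 0.055 for Polycomb. The share called around su(Hw) was 20%, and 30% with 5 genes on each side. The motif count in promoters was not run. Signal over background limits what is known of genes dim in 1 group, and their sizes are bounds.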

Other observations

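Called genes that lie next to each other among the tested genes formed 10 runs of at least 4 in the same direction, 6 lower and 4 higher. These runs were looked for after the data were seen, and gene order comes from the RefSeq table. The lower runs held the chorion genes Cp18, Cp15, Cp19 and Cp16, and the eggshell neighbours CG15571, CG15570, Femcoat and Muc4B. Another lower run was CG8997, CG7916, CG7953, CG7968 and Ance, which codes for an angiotensin-converting enzyme homologue. CG8997 averaged 249 in f/v and was below background on every Pb/2 array (at least 3.69-fold lower, adjusted p = 2.7e-07). CG7968 averaged 153 in f/v and was below background in Pb/2 too (at least 2.23-fold, adjusted p = 0.0019). A run of CG7745, nompA, lambdaTry and kappaTry held lambdaTry, a trypsin gene, which averaged 212 in f/v and was below background on every Pb/2 array (at least 3.12-fold lower, adjusted p = 5.3e-05). Of the higher runs the vitelline membrane run CG13998, Vm26Ac, Vm26Aa and psd spanned 0.44 to 0.67. Orai, the store-operated calcium channel gene, led the run Orai, olf186-M, CG14490 and thr, with means of 877 in f/v and 5109 in Pb/2 (2.53 ± 0.15, adjusted p = 1.2e-06). Each gene in a run was read by its own probe set, annotated to 1 gene. Adjacent genes can share transcripts, and this was not tested.

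Probe sets to which the annotation used here gives no symbol were fitted as well. Of 2237 such probe sets 134 were called higher and 83 lower, 9.7% in all, beside 20.5% of all genes. Of 303 that name several genes 58 (19.1%) were called, 20 higher and 38 lower. Among those with no symbol, a probe set that averaged 2002 in f/v averaged 72.7 in Pb/2 (-4.59 ± 0.26, adjusted p = 1.6e-06), with 2 of 3 Pb/2 arrays above background. Another averaged 55.1 in f/v, with 2 of 3 arrays above background, and 1389 in Pb/2 (4.37 ± 0.23, adjusted p = 1.0e-06).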
